A study of Mus musculus with 8 samples.

Results

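Transcripts of 10 genes of the Id, Twist and Notch families were followed through adipogenesis in 3T3-L1 cells, a clonal mouse line of fibroblast-like preadipocytes that turns into fat cells under hormones. The genes were Id1, Id2, Id3, Id4, Twist1, Twist2, Notch1, Notch2, Jag1 and Hes1, taken by symbol from a deposited table of 22798 genes, and each symbol matched 1 gene. The study made 8 RNA-seq libraries, 2 at each of 4 stages, from cells grown in 10% fetal bovine serum. The stages were proliferation (exponential growth), quiescence (confluent for 48 hours), clonal expansion (10 hours after an adipogenic cocktail was added) and differentiation (6 days after it). The cocktail held isobutylmethylxanthine at 0.25 mM, which raises cyclic AMP, insulin at 5 µg/µl as the labels write it, and the glucocorticoid dexamethasone at 1 µM. It was given for 48 hours and followed by insulin alone, so the clonal expansion libraries come from cells still in the cocktail and the differentiation libraries from cells in insulin. All 4 stages share the line, listed as Swiss albino, and the medium.

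Id proteins are helix-loop-helix proteins without a DNA-binding region. They pair with the E proteins, the common partners of tissue-specific basic helix-loop-helix (bHLH) factors, and keep them off DNA, and they are known as early targets of bone morphogenetic protein (BMP) signalling through SMAD proteins. Twist1 and Twist2 are bHLH factors of mesodermal cells that also pair with E proteins. Notch receptors are cut after binding a ligand such as Jagged 1 on a neighbouring cell, and the freed intracellular domain joins RBPJ on DNA to switch on repressors of the HES and HEY families. In preadipocytes, Notch1, Jag1 and Hes1 have long been studied as regulators of fat cell formation, and BMP signals are known to favour it.

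The values are pseudo-counts, normalized values that the authors derived from read counts. Their sum per library was 122413485 to 151529060, so the libraries do not share the same total. Each stage has an experiment 1 and an experiment 2, and the labels do not say whether these were separate cultures. The p-values therefore reflect the spread between libraries alone, and that spread may be technical. The labelled stages carried their markers. The summed pseudo-count of 12 fat cell markers was 5282159 to 5599711 at differentiation, against 63973 to 151147 at the earlier stages, and that of 5 cell cycle markers was 92737 to 133361 at proliferation, 39727 to 42625 in quiescent cells, 86873 to 97882 at clonal expansion and 18151 to 21006 at differentiation. Most of the higher sum at clonal expansion was Top2a, with 59310 ± 4408 there, against 14709 ± 377 at quiescence, while Mki67 had 13476 ± 1631, against 14332 ± 290, and was not called. The 4 epithelial markers summed to 859.3 to 1821 per library at differentiation, against 3.639 to 20.46 at the other stages. Epcam was below 1 at every stage, while Krt18 had 1256 ± 644 and Krt8 80.93 ± 36.6 at differentiation, against stage means of at most 1.85 and 4.812 before it. The 5 macrophage and blood markers summed to 3335 to 3845 at proliferation, 3645 to 4806 at quiescence, 1831 to 2632 at clonal expansion and 724 to 738.7 at differentiation, mostly from Lyz2 and Cd68, with stage means of Ptprc and Adgre1 of at most 1.37. The 4 muscle markers summed to 4995 to 5573 at differentiation, against 150.1 to 1323 at the other stages, and of these Des had 5282 ± 409 at differentiation, against stage means of at most 1179 before it, with stage means of Myod1 of at most 1.03. The 4 endothelial markers summed to 134.4 to 296.8 per library. The part of such cells in the values below was not tested. The quiescent libraries differed with transcript length: library 2 minus library 1 had a median log2 difference of -0.251 in 3616 genes with transcripts under 2000 nt and 0.255 in 2849 genes over 5000 nt. Stage values are given as mean ± SD in pseudo-counts (n = 2 libraries), and log2 fold changes (log2FC) are of pseudo-count + 1, with their standard error (SE), later stage over earlier. A gene is said to rise, fall or change only where the Benjamini-Hochberg adjusted p of limma over the 14647 genes tested was under 0.05. In such bulk samples, fewer cells expressing a gene and less of its RNA per cell cannot be told apart.

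**Figure D1:**
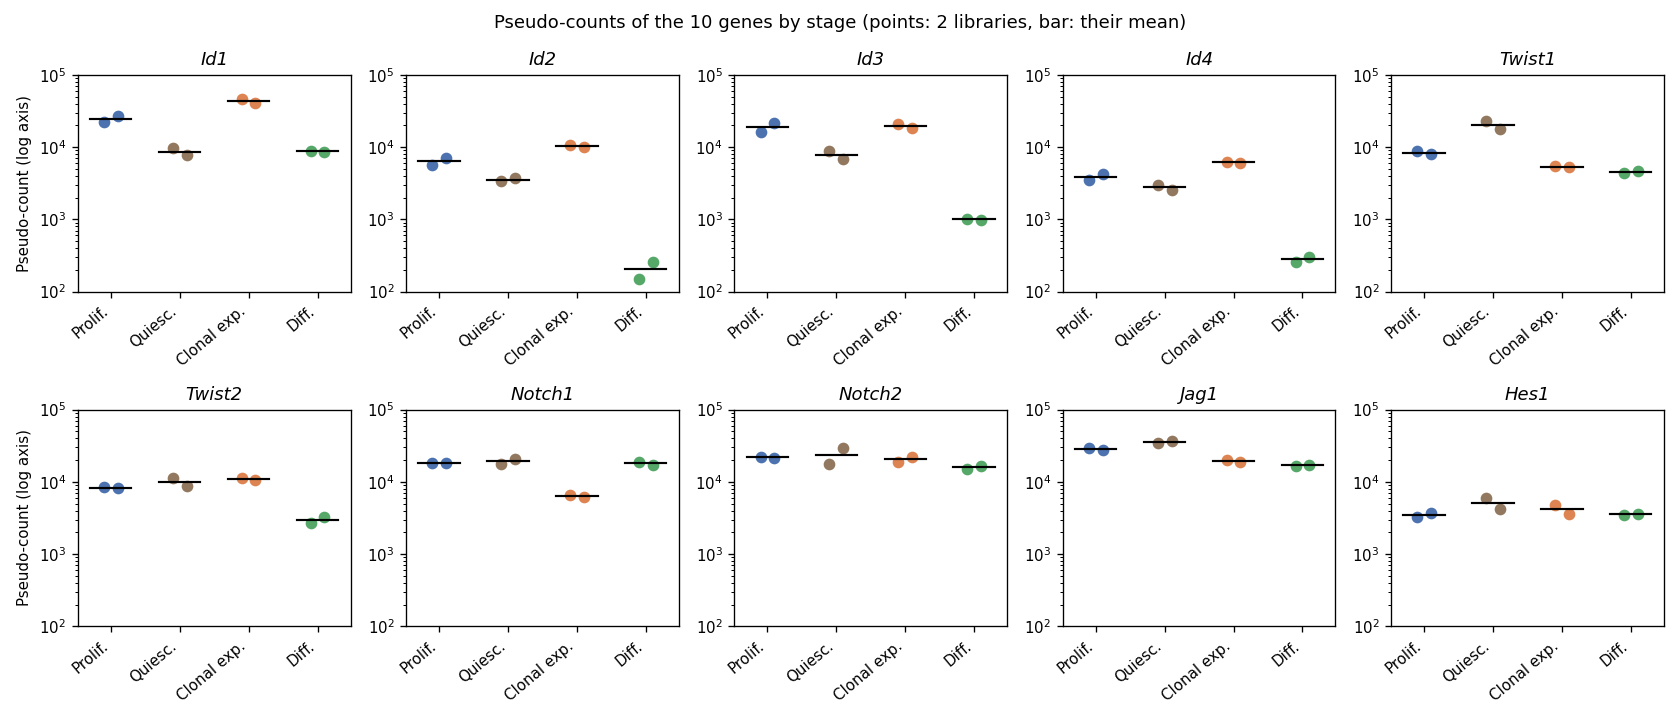
Pseudo-counts of the 10 genes in each library (points, log axis) with the mean of each stage (bars), by stage in the order proliferation, quiescence, clonal expansion and differentiation. The Id genes dip at quiescence and are higher at clonal expansion, Id1, Id2 and Id4 highest there and Id3 overlapping proliferation, Twist1 peaks at quiescence at 20334, and Notch1 dips at clonal expansion to 6453.

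All 10 genes passed the filter on low values, a mean of at least 10. Between consecutive stages, 6 of them changed at quiescence against proliferation, 7 at clonal expansion against quiescence and 6 at differentiation against clonal expansion. At quiescence 2 rose, where 11.9% of all genes tested rose, and 4 fell, where 11.8% did. At clonal expansion against quiescence 4 rose and 3 fell, beside 34.4% and 34.4% of all genes. At differentiation against clonal expansion 1 rose and 5 fell, beside 36.8% and 36.2%. Over longer steps, none rose and 8 fell at differentiation against quiescence, beside 33.4% and 32.9%, and none rose and 7 fell at differentiation against proliferation, beside 34.5% and 33.3%. At an unadjusted p under 0.05 in limma, 8 of the 10 differed in each of these longer steps, and again none was higher. At clonal expansion against proliferation 4 rose and 3 fell, beside 32.7% and 32.1%. The median log2FC of the 10 genes was 0.08, -0.01 and -1.12 in the 3 consecutive steps, where the median of all genes was within 0.01 of 0. At differentiation it was -1.42 against quiescence and -1.19 against proliferation. The comparisons share libraries, so their counts are not independent. Without the library proliferation 2, 3 of the 10 genes changed at quiescence, and 1300 genes of the whole table in place of 3472.

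**Figure D2:**
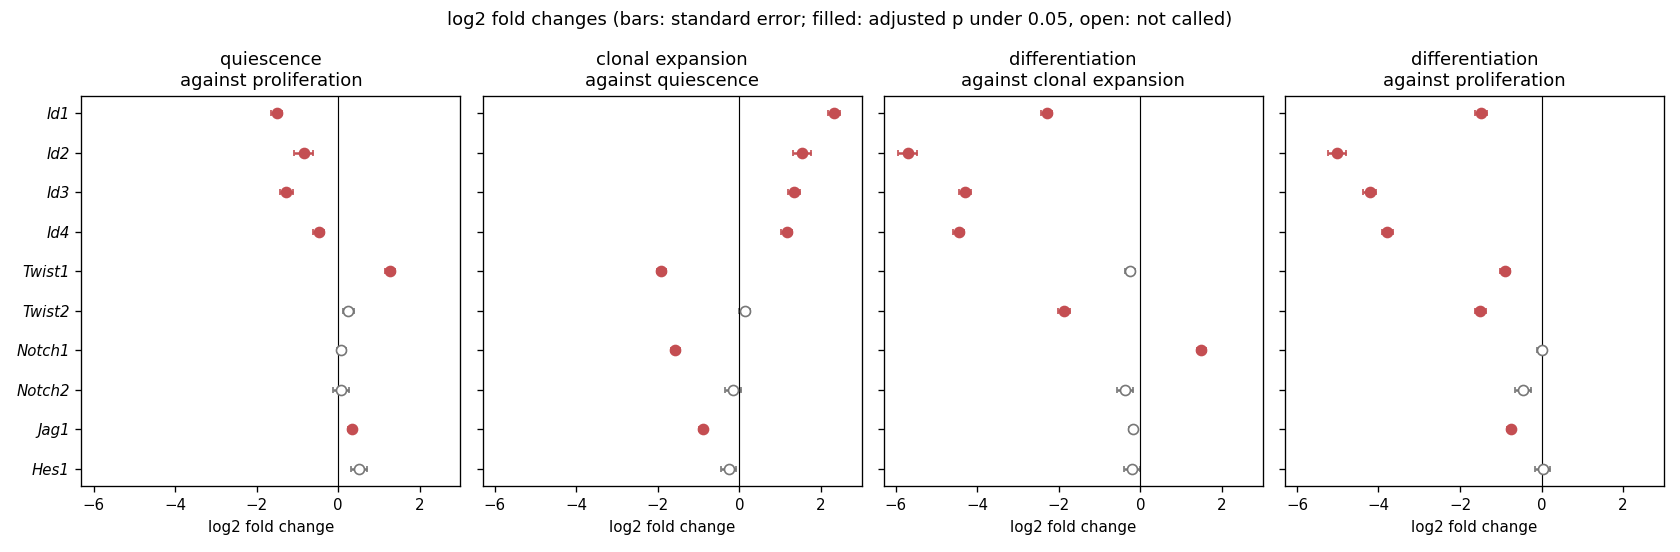
Log2 fold change of each of the 10 genes in 4 comparisons (points), with standard errors (bars), filled where the adjusted p was under 0.05 and open where it was not. The Id genes stand at -0.48 to -1.51 at quiescence, at 1.16 to 2.32 at clonal expansion and at -2.30 to -5.71 at differentiation against clonal expansion.

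The 4 Id genes moved in the same direction at each consecutive step. All 4 fell at quiescence, rose 2.23-fold to 5.01-fold at clonal expansion, and fell at differentiation, by 4.92-fold for Id1 and by 19.6-fold to 52.3-fold for the other three. Cell cycle markers moved too: 5 of 5 fell at quiescence, beside 11.8% of all genes. At clonal expansion 3 of 5 rose (Top2a, Ccna2 and Cdk1, by 2.01, 0.62 and 0.90 on the log2 scale), beside 34.4% of all genes. At differentiation against clonal expansion 5 of 5 fell, beside 36.2%. The part of these markers in the Id values was not tested.

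Id1 (NCBI gene 15901, chr2:152562010-152563146 in mm9, as for the positions of all 10 genes), a target of BMP signals in many cell types, had 22129 and 26972 pseudo-counts at proliferation, 9597 and 7708 in quiescent cells, 46214 and 40130 in clonal expansion, and 8922 and 8593 at differentiation. Both clonal expansion libraries were the highest of all, and the quiescence and differentiation libraries overlapped. Id1 fell at quiescence (8653 ± 1336, against 24551 ± 3424 at proliferation, log2FC -1.51 ± 0.14 SE, adjusted p = 0.000118). It rose at clonal expansion to 43172 ± 4302 (2.32 ± 0.14 against quiescence, adjusted p = 5.89e-07) and fell at differentiation to 8757 ± 233 (-2.30 ± 0.14 against clonal expansion, adjusted p = 2.22e-07). In order of level, clonal expansion stood above proliferation (log2FC 0.82, adjusted p = 0.000493), proliferation above differentiation, and the lowest stages, differentiation and quiescence, did not differ beyond their spread (0.03 ± 0.14, adjusted p = 0.879). That last difference was -0.21 when libraries were scaled to the same total.

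Id2 (gene 15902, chr12:25778664-25780957) had 5696 and 7164 pseudo-counts at proliferation, 3387 and 3720 in quiescent cells, 10650 and 9998 in clonal expansion, and 148.0 and 260.7 at differentiation. No 2 stages overlapped, and the differentiation libraries were the lowest by a wide margin, with a log2 difference of 0.81 between them. Id2 fell 52.3-fold at differentiation against clonal expansion (log2FC -5.71 ± 0.23, adjusted p = 1.54e-08), the largest change among the 10 genes in any of the 6 comparisons. It rose at clonal expansion against quiescence (1.54 ± 0.23, adjusted p = 0.000172). Its lower level at quiescence than at proliferation (-0.85 ± 0.23, adjusted p = 0.0229) lost its call without the library proliferation 2 (-0.68, adjusted p = 0.199) or quiescence 1 (-0.78, adjusted p = 0.0679). Its higher level at clonal expansion than at proliferation (0.69, adjusted p = 0.0208) lost its call without clonal expansion 1 (0.65), clonal expansion 2 (0.74) or proliferation 1 (0.53), and was 0.42 with the same total per library.

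Id3 (gene 15903, chr4:135699737-135701307) had 16314 and 21373 pseudo-counts at proliferation, 8706 and 6859 in quiescent cells, 20961 and 18425 in clonal expansion, and 1010 and 989.5 at differentiation. The proliferation and clonal expansion libraries overlapped, and each of the other stages stood apart. Id3 fell at quiescence (log2FC -1.27 ± 0.15, adjusted p = 0.00043), rose at clonal expansion against quiescence (1.35 ± 0.15, adjusted p = 3.05e-05) and fell 19.6-fold at differentiation against clonal expansion (-4.30 ± 0.15, adjusted p = 7.81e-09). At clonal expansion it had 19693 ± 1793, against 18844 ± 3577 at proliferation (0.07 ± 0.15, adjusted p = 0.69), a difference that was -0.20 with the same total per library.

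Id4 (gene 15904, chr13:48356796-48359405) had 3470 and 4226 pseudo-counts at proliferation, 2980 and 2539 in quiescent cells, 6282 and 5988 in clonal expansion, and 256.2 and 301.9 at differentiation. The stages did not overlap and had the same order as for Id2. Id4 rose at clonal expansion against quiescence (log2FC 1.16 ± 0.14, adjusted p = 5.84e-05) and against proliferation (0.68 ± 0.14, adjusted p = 0.00213), and fell 22.0-fold at differentiation against clonal expansion (-4.46 ± 0.14, adjusted p = 4.63e-09). Its lower level at quiescence than at proliferation (-0.48 ± 0.14, adjusted p = 0.0389) was the smallest of the 4 Id differences there. It lost its call without proliferation 2 (-0.33, adjusted p = 0.281), quiescence 2 (-0.36, adjusted p = 0.136) or either clonal expansion library (adjusted p = 0.0654 and 0.0651).

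Against quiescence, Id1 did not differ beyond its spread at differentiation, while the other three fell. At differentiation Id1 had 8757 ± 233 pseudo-counts, against 8653 ± 1336 at quiescence. Id2 had 204.3 ± 79.7, against 3554 ± 235 at quiescence (18.0-fold lower, log2FC -4.17, adjusted p = 1.42e-07). Id3 had 999.7 ± 14.5, against 7782 ± 1306 (7.72-fold lower, -2.95, adjusted p = 1.08e-07), and Id4 had 279.0 ± 32.3, against 2760 ± 312 (9.86-fold lower, -3.30, adjusted p = 3.76e-08). Against proliferation, all 4 fell at differentiation, by 2.79-fold for Id1, 32.4-fold for Id2, 18.7-fold for Id3 and 13.7-fold for Id4. The difference between Id1 and the others was not itself tested.

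Levels per length show how the family total was made up. Divided by the length of the longest protein-coding transcript in GENCODE vM21 (GRCm38), the 4 genes summed to 35637 and 44712 pseudo-counts per kb at proliferation, 17580 and 14561 in quiescent cells, 63282 and 55646 in clonal expansion, and 8623 and 8393 at differentiation. Id1 gave 53.5% and 52.0% of that sum at proliferation, 47.1% and 45.6% in quiescent cells, 63.0% and 62.2% in clonal expansion, and 89.2% and 88.3% at differentiation. Id3 gave 35.8% and 37.4%, then 38.7% and 36.9%, then 25.9% in both clonal expansion libraries, and 9.16% and 9.23% at differentiation. Id2 gave 8.12% to 13.0% before differentiation and 0.872% and 1.58% there, and Id4 at most 4.53% in any library. The differentiated cells thus had the lowest Id total per kb and the highest share of Id1. The transcript used for Id4, 3849 nt, is longer than the span the table lists for the gene, so its level per kb depends on that choice.

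**Figure D3:**
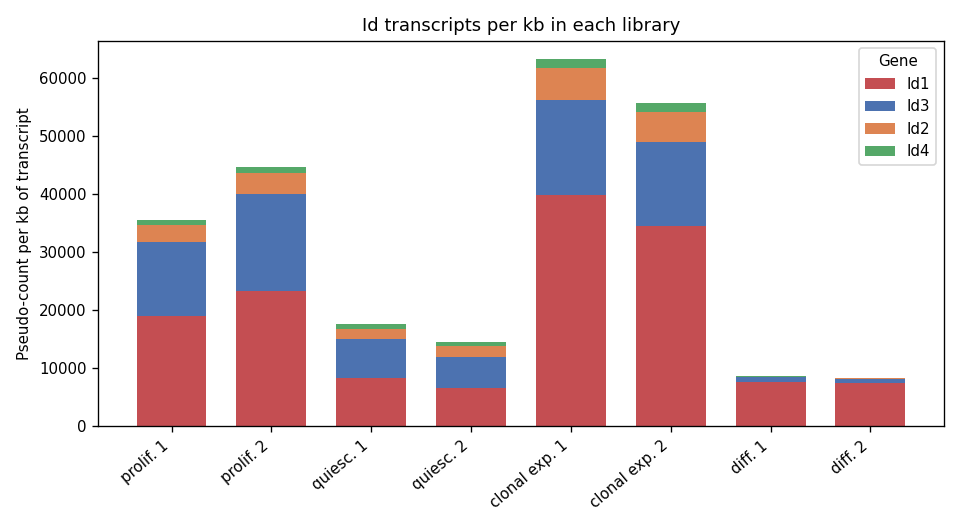
Pseudo-counts per kb of transcript of Id1, Id3, Id2 and Id4, stacked for each of the 8 libraries. The total is 55646 to 63282 at clonal expansion and 8393 to 8623 at differentiation, where Id1 makes up 88.3% and 89.2% of it.

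Id2, Id3 and Id4 varied together over the 8 libraries, with Pearson r on the log2 scale of 0.98 for Id2 with Id3, 1.00 for Id2 with Id4 and 0.98 for Id3 with Id4, against 0.72 to 0.77 for Id1 with each of them. These coefficients rest on 4 stages of 2 libraries each and are a description. Twist2 was nearly as close to these 3 genes, with r of 0.96, 0.92 and 0.97. The promoters of Id2, Id3 and Id4 are shown, from RefSeq (GRCm38.p6), each from 250 bases before to 50 after the transcription start: chr12:25096043-25096342 on the minus strand for Id2, chr4:136143572-136143871 on the plus strand for Id3 and chr13:48260866-48261165 on the plus strand for Id4. The capitals mark the CCAAT box (CCAAT, or ATTGG on the other strand) and the cyclic AMP response half-site (TGACG, or CGTCA on the other strand).
Id2: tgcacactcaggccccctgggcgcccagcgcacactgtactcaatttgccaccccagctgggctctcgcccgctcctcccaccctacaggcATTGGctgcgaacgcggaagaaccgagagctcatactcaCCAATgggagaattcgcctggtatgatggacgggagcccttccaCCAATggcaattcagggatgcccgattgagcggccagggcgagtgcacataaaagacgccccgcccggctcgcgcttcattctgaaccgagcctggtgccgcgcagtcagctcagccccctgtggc
Id3: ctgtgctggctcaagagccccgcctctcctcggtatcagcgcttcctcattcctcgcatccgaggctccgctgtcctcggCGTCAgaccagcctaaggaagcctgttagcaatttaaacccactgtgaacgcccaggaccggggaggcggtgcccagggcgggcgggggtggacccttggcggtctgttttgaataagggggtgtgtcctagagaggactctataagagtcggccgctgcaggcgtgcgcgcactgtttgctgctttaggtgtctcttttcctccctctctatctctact
Id4: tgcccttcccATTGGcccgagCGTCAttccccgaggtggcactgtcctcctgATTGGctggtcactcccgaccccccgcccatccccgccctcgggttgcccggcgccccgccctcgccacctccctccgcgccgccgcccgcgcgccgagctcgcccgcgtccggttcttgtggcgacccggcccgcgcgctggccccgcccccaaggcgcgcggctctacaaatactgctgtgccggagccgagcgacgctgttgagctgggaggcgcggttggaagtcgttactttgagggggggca
Counted to the first base of the match, the Id2 window holds the CCAAT box at 159, 120 and 76 bases before the start, the Id4 window at 240 and 198 bases before it, and the Id3 window does not hold it. The half-site lies 170 bases before the start in Id3 and 229 bases before it in Id4, with none in the Id2 window. Of 32851 RefSeq mouse promoters of this length, 37.4% hold a CCAAT box and 20.8% the half-site, on either strand. Promoters of 8 of the 10 genes were matched, without Id1 and Hes1. Only the first listed promoter of each gene was used, and any other start sites were not searched, while the shares are over all listed promoters. Among the 8, Id2, Id4, Twist1 and Twist2 hold a CCAAT box, and Id3, Id4, Twist1 and Jag1 hold the half-site. Other motifs were searched on both strands in the same windows. The E-box (CANNTG), bound by bHLH dimers, is in Id2 and Jag1 and in 72.3% of all promoters. The N-box (CACNAG), a site of HES repressors, is in Id2, Id4, Twist2, Notch1 and Notch2 and in 42.5% of all. The RBPJ core (TGGGAA) is in Id4 and 25.6% of all, and the GC-rich SMAD motif GGCGCC is in Id2 and Id4 and 11.9% of all. The RBPJ match in Id4 shares 1 base with a CCAAT box. These matches describe letters and not binding.

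The E proteins, the partners that Id proteins hold, changed by at most 1.10 on the log2 scale between consecutive stages. None of the 3 changed at quiescence in limma, also at an unadjusted p under 0.05. Tcf3, which encodes E12 and E47, had 10828 ± 215 pseudo-counts at differentiation, against 22250 ± 17.7 at clonal expansion (log2FC -1.04, adjusted p = 2.73e-06). Tcf4 had 10184 ± 443 at clonal expansion, against 22126 ± 5153 at quiescence (-1.10, adjusted p = 7.59e-05), and 11872 ± 565 at differentiation. Tcf12 had 17223 ± 564 at clonal expansion, against 24132 ± 2918 at quiescence (-0.48, adjusted p = 0.00208), and 14903 ± 53 at differentiation. At differentiation all 3 were lower than at quiescence, by 0.69 to 0.98 on the log2 scale, beside 2.95 to 4.17 for Id2, Id3 and Id4. Tcf3 fell at the step from clonal expansion, and Tcf4 and Tcf12 at the step before it.

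The inhibitory SMADs, which are induced by BMP and TGF-beta signals and dampen them, and Smad9 had the same directions as the Id genes at all 3 steps. Smad6 had 8864 ± 1244 pseudo-counts at proliferation, 4712 ± 920 at quiescence, 13814 ± 1390 at clonal expansion and 2173 ± 378 at differentiation (log2FC -0.92, 1.56 and -2.67 between consecutive stages). Smad7 had 4927 ± 1062, 2123 ± 157, 6581 ± 13.1 and 491.8 ± 57.6 (-1.20, 1.63 and -3.74). Smad9, a receptor-activated SMAD of the BMP branch, had 1685 ± 202, 670.8 ± 84.2, 2429 ± 37.7 and 124.6 ± 0.242 (-1.33, 1.86 and -4.27). Each of these 9 changes passed the test, with adjusted p of 0.0042 or less. How many of all genes had the same directions at all 3 steps was not counted. Genes outside the BMP lists also had stage means in these directions, for example Ccnd1, with 97310, 62367, 156782 and 8832 in stage order. Smad1, the main BMP SMAD beside Smad5, had 3754 ± 59.7 at proliferation and 3818 ± 111 at quiescence, rose to 5923 ± 150 at clonal expansion (0.63, adjusted p = 0.000254), and fell to 1684 ± 40.7 at differentiation (-1.81 against clonal expansion, adjusted p = 1.14e-07). Of 16 tested BMP receptors and SMADs, 2 rose and 4 fell at quiescence, 7 rose and 1 fell at clonal expansion, and 4 rose and 10 fell at differentiation against clonal expansion. The shares of all genes higher and lower were 11.9% and 11.8%, 34.4% and 34.4%, and 36.8% and 36.2% at these steps. The median log2FC of the list was -0.03, 0.35 and -0.79 at these steps. Smad5 had means of 15406, 18979, 15842 and 16303 in stage order. Its differences at quiescence (0.29, adjusted p = 0.0905) and at clonal expansion against quiescence (-0.25, adjusted p = 0.0708) were not called. The 2 genes that rose at quiescence were Acvr2a (0.61) and Acvr1 (0.44). At differentiation against quiescence 9 fell and 3 rose, Acvr2b (1.73), Smurf2 (0.86) and Smurf1 (0.25), beside 32.9% and 33.4% of all genes.

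**Figure D4:**
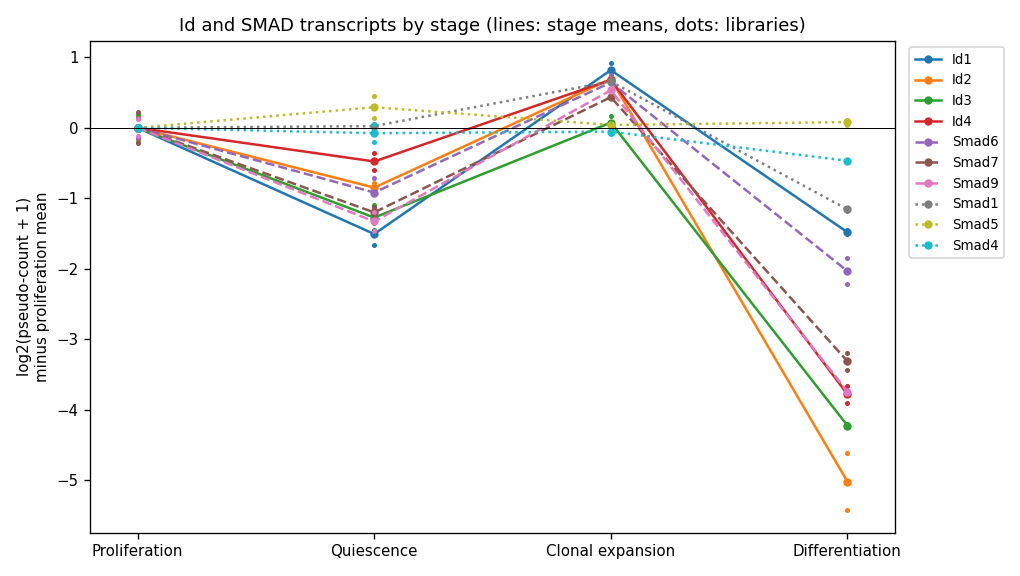
Log2(pseudo-count + 1) minus the proliferation mean for the 4 Id genes (solid lines), Smad6, Smad7 and Smad9 (dashed) and Smad1, Smad4 and Smad5 (dotted), by stage, with lines through the stage means and dots for libraries. Smad4 and Smad5 were added after their values were seen. At differentiation Id1 lies at -1.48 and Smad6 at -2.03, while Id2, Id3, Id4, Smad7 and Smad9 lie between -3.31 and -5.02.

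Other regulators of BMP signals moved in both directions. Bambi, a decoy receptor, had 2825 ± 458 pseudo-counts at clonal expansion, against 626.4 ± 80.1 at quiescence (log2FC 2.17, adjusted p = 5.35e-06), and 506.3 ± 107 at differentiation. The antagonists Nog and Fst also rose at clonal expansion, Nog to 1224 ± 77.5, against 42.61 ± 6.61 at quiescence (4.82, adjusted p = 1.45e-06), and Fst to 55416 ± 6046, against 16230 ± 1055 (1.77, adjusted p = 1.3e-05). Grem1, another antagonist, had 25349 ± 2048 at proliferation, 6109 ± 368 at quiescence, 4465 ± 528 at clonal expansion and 121 ± 41.5 at differentiation. It fell at quiescence (-2.05, adjusted p = 0.000178) and at differentiation against clonal expansion (-5.23, adjusted p = 1.35e-08). Among ligands, Gdf5 rose at differentiation to 4587 ± 136, against 55.67 ± 6.65 at clonal expansion (6.34, adjusted p = 4.11e-09). Bmp4, a ligand known to commit cells to the fat lineage, had 31.65 ± 0.584 at proliferation, 20.1 ± 5.66 at quiescence, a value below 1 in both clonal expansion libraries and 3.649 ± 0.777 at differentiation. Of 11 tested ligands and inhibitors, 3 rose and 2 fell at quiescence, 3 rose and 4 fell at clonal expansion, and 2 rose and 6 fell at differentiation against clonal expansion, beside the same shares of all genes.

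Twist1 and Twist2 had different profiles. Twist1 peaked at quiescence, and Twist2 differed by at most 0.38 on the log2 scale among the first 3 stages and fell at differentiation. Their bHLH regions are close to identical, and how reads that fit both genes were counted is not given in the sources used here.

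Twist1 (gene 22160, chr12:34642536-34644696), which holds mesenchymal cells in an undifferentiated state in several tissues, had 8796 and 7959 pseudo-counts at proliferation, 22638 and 18031 in quiescent cells, 5488 and 5272 in clonal expansion, and 4371 and 4632 at differentiation. The quiescence libraries were the highest, and no 2 stages overlapped. Twist1 rose at quiescence (log2FC 1.27 ± 0.12, adjusted p = 0.000147) and fell 3.76-fold at clonal expansion against quiescence (-1.91 ± 0.12, adjusted p = 8.38e-07). It was also lower at clonal expansion than at proliferation (-0.64, adjusted p = 0.00108). The difference between differentiation and clonal expansion missed the threshold (4501 ± 185, against 5380 ± 153, log2FC -0.26 ± 0.12, adjusted p = 0.0794) and was called without quiescence 1 (adjusted p = 0.0248) or quiescence 2 (adjusted p = 0.0244). These directions at quiescence and clonal expansion are opposite to those of the 4 Id genes.

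Twist2 (gene 13345, chr1:93698054-93744604), known from bone and skin cells, had 8398 and 8295 pseudo-counts at proliferation, 11276 and 8729 in quiescent cells, 11178 and 10490 in clonal expansion, and 2678 and 3263 at differentiation. The first 3 stages lay close together, with quiescence and clonal expansion overlapping, and differentiation lay below them all. It fell 3.66-fold at differentiation against clonal expansion (log2FC -1.87 ± 0.14, adjusted p = 1.02e-06), 3.36-fold against quiescence and 2.82-fold against proliferation. The differences at quiescence (0.25, adjusted p = 0.226) and at clonal expansion against quiescence (0.13, adjusted p = 0.44) did not pass the test, though without quiescence 2 the one at quiescence did (0.43, adjusted p = 0.0365). Clonal expansion against proliferation (0.38, adjusted p = 0.0363) was called with all libraries, and not without clonal expansion 1 (0.33), clonal expansion 2 (0.42), proliferation 1 (0.38) or proliferation 2 (0.37), nor with the same total per library (0.10, adjusted p = 0.528).

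Per kb, Twist1 made up 61.9% and 59.8% of the 2 Twist transcripts at proliferation, 75.7% and 76.2% in quiescent cells, 43.2% and 43.8% in clonal expansion, and 71.7% and 68.8% at differentiation. Twist2 was thus the larger of the pair in both clonal expansion libraries and in no other. Of 8 related mesodermal bHLH genes, 6 did not pass the filter on low values, with stage means of at most 6.044. Scx, a tendon factor, had 215 ± 52.7 pseudo-counts at clonal expansion, against 64.59 ± 3.96 at quiescence (log2FC 1.70, adjusted p = 0.0005), and the other, Tcf23, was not called in any of the 6 comparisons.

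Among the Notch genes, Notch1 dipped at clonal expansion. Notch1 (gene 18128, chr2:26313422-26359342) had 18300 and 18004 pseudo-counts at proliferation, 17476 and 21039 in quiescent cells, 6683 and 6223 in clonal expansion, and 19019 and 17279 at differentiation. The clonal expansion libraries were the lowest, and the other 3 stages overlapped. Notch1 fell 2.97-fold at clonal expansion against quiescence (log2FC -1.57 ± 0.11, adjusted p = 1.53e-06) and 2.81-fold against proliferation, and rose 2.81-fold at differentiation against clonal expansion (1.49 ± 0.11, adjusted p = 1.1e-06). At differentiation it had 18149 ± 1230, against 18152 ± 210 at proliferation and 19257 ± 2519 at quiescence, with adjusted p of 0.99 and 0.542. With the same total per library the differentiation level was called lower than both (-0.28, adjusted p = 0.0478, and -0.32, adjusted p = 0.0286).

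Notch2 (gene 18129, chr3:97817461-97954290) had 22368 and 21392 pseudo-counts at proliferation, 17780 and 29619 in quiescent cells, 19064 and 22049 in clonal expansion, and 14965 and 16781 at differentiation. The quiescence libraries spanned those of proliferation and clonal expansion, and the differentiation libraries were the lowest. The quiescence libraries differed by 0.74 on the log2 scale, in the direction of the other long transcripts there, for a transcript of 10500 nt. No difference between consecutive stages passed the test (log2FC 0.07, -0.16 and -0.37, with adjusted p of 0.835, 0.484 and 0.114). At quiescence against proliferation the value was 0.44 and called without quiescence 1 (adjusted p = 0.0305), and -0.30 without quiescence 2. At clonal expansion against quiescence it was -0.53 and called without quiescence 1 (adjusted p = 0.00339), and 0.21 without quiescence 2. Differentiation was lower than quiescence (-0.53 ± 0.20, adjusted p = 0.0352), a call lost without quiescence 2 (-0.17, adjusted p = 0.254), differentiation 1 (-0.45), differentiation 2 (-0.62) or either proliferation library (adjusted p = 0.0556). Against clonal expansion and proliferation, the differentiation value (-0.37 and -0.46) was called without either quiescence library (adjusted p of 0.00651 and 0.00633, and of 0.00192 and 0.00185), and also once the trend with transcript length was removed (-0.42 and -0.36).

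Notch1 made up 47.5% and 48.2% of the sum of Notch1 and Notch2 per kb at proliferation, 52.1% and 44.0% in quiescent cells, 28.0% and 23.8% in clonal expansion, and 58.4% and 53.3% at differentiation. Of the other receptors, Notch3 had 6273 ± 615 pseudo-counts at proliferation, 5261 ± 442 at quiescence, 2402 ± 133 at clonal expansion and 1878 ± 150 at differentiation. It fell at clonal expansion against quiescence (log2FC -1.13, adjusted p = 2.1e-05) and at differentiation against clonal expansion (-0.36, adjusted p = 0.0226). Notch4 was low, with 234.4 ± 5.94 at clonal expansion, against 133 ± 11.7 at quiescence (0.82, adjusted p = 0.00384), and 192.1 ± 19.1 at differentiation. By their means, clonal expansion was thus the lowest stage for Notch1 and the highest for Notch4, while Notch3 was lowest at differentiation.

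Jag1 (gene 16449, chr2:136907187-136942256), the ligand Jagged 1, had 29139 and 27853 pseudo-counts at proliferation, 34457 and 37151 in quiescent cells, 19870 and 18685 in clonal expansion, and 16833 and 16994 at differentiation. No 2 stages overlapped, with quiescence the highest and differentiation the lowest. Jag1 fell at clonal expansion, to 19278 ± 838, against 35804 ± 1905 at quiescence (log2FC -0.89 ± 0.09, adjusted p = 1.74e-05) and 28496 ± 909 at proliferation (-0.56, adjusted p = 0.000441). Differentiation did not differ from clonal expansion beyond the threshold (-0.19 ± 0.09, adjusted p = 0.0929) and was 2.12-fold lower than quiescence (-1.08, adjusted p = 3.6e-06). The higher level at quiescence than at proliferation (0.33 ± 0.09, adjusted p = 0.0299) was lost when any library but quiescence 1 was left out. It was then 0.36 without proliferation 1, 0.30 without proliferation 2, 0.27 without quiescence 2 and 0.33 without any of the other four, with adjusted p of 0.0527 to 0.183.

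The other canonical ligands were low. Jag2 had 267.5 ± 10.6 pseudo-counts at quiescence, against 158.4 ± 36.6 at proliferation (log2FC 0.77, adjusted p = 0.0419). At clonal expansion it had 106.6 ± 20.9 (-1.33 against quiescence, adjusted p = 0.000639) and at differentiation 246.8 ± 35.7 (1.21 against clonal expansion, adjusted p = 0.00104). Dll1 was likewise lowest at clonal expansion, with 9.488 ± 0.0929, against 40.4 ± 2.17 at quiescence (-1.98, adjusted p = 0.000329). Dll4 rose at differentiation to 78.82 ± 2.68, against 17.07 ± 1.22 at clonal expansion (2.14, adjusted p = 0.000149), and Dll3 was not called in any comparison, at 11.06 to 21.61 per stage. Dlk1 and Dlk2 are membrane proteins related to these ligands, without the part that binds Notch in the canonical ones, and Dlk1, or Pref-1, is a known inhibitor of fat cell formation. Dlk1 had 327628 ± 24916 at proliferation, 506354 ± 81596 at quiescence, 441244 ± 35918 at clonal expansion and 47408 ± 5927 at differentiation, and fell at the last step (-3.22, adjusted p = 5.46e-08). Dlk2 rose at clonal expansion to 2865 ± 59.5, against 227.4 ± 61.8 at quiescence (3.68, adjusted p = 1.07e-06), and fell at differentiation to 23.1 ± 4.13 (-6.90 against clonal expansion, adjusted p = 7.71e-09). Of the 7 ligand genes tested, Jag1 among them, 3 rose and 1 fell at quiescence, beside 11.9% and 11.8% of all genes. At clonal expansion 1 rose and 3 fell, beside 34.4% and 34.4% of all genes. At differentiation against clonal expansion 3 rose and 2 fell, beside 36.8% and 36.2% of all genes.

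Hes1 (gene 15205, chr16:30065443-30067882), the repressor that Notch signals induce in many cells, had 3259 and 3745 pseudo-counts at proliferation, 5964 and 4147 in quiescent cells, 4806 and 3572 in clonal expansion, and 3519 and 3625 at differentiation. The quiescence libraries lay above those of proliferation and differentiation, and those of clonal expansion overlapped every other stage. No difference between consecutive stages passed the test (log2FC 0.51, -0.26 and -0.21, each with an SE of 0.19 and adjusted p of 0.0738, 0.23 and 0.319). The differences at quiescence (0.77, adjusted p = 0.0105) and at clonal expansion against quiescence (-0.53, adjusted p = 0.02) passed it without quiescence 2, the lower of the quiescence libraries. The lower level at differentiation than at quiescence (3572 ± 74.9, against 5056 ± 1285, -0.48, adjusted p = 0.0431) was lost without quiescence 1 (-0.22), differentiation 1 (-0.46), differentiation 2 (-0.50) or either proliferation library (adjusted p = 0.0573 and 0.0574). Hes1 is a short transcript of 1468 nt, and library 2 minus library 1 was -0.52 at quiescence and -0.43 at clonal expansion, the direction of the median of transcripts under 2000 nt in both stages (-0.251 and -0.115). With the trend with transcript length removed, the difference at quiescence was called (0.50, adjusted p = 0.0248).

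Some other HES and HEY genes are targets of Notch, and whether those below respond to it in these cells was not tested. Hes6, which opposes Hes1 in neural cells, had 1642 ± 187 pseudo-counts at clonal expansion, against 3606 ± 747 at quiescence (log2FC -1.12, adjusted p = 0.000143), and 3122 ± 20.2 at differentiation. Hey1 fell at differentiation to 591.5 ± 74.7, against 1363 ± 16.8 at clonal expansion (-1.21, adjusted p = 2.33e-05). Hes7 had 29.59 ± 6.11 at clonal expansion, against 62.99 ± 12.1 at quiescence (-1.07, adjusted p = 0.00891), and Hey2 had 1.945 ± 1.28, against 16.5 ± 3.9 (adjusted p = 0.000345), and 37.07 ± 8.12 at differentiation. Of the 5 tested, Hes1 included, none changed at quiescence (1 was higher at an unadjusted p under 0.05 in limma), 3 fell at clonal expansion, beside 34.4% of all genes, and 2 rose and 1 fell at differentiation against clonal expansion, beside 36.8% and 36.2%. Hes2, Hes3, Hes5, Heyl, Nrarp and Helt, the other 6 written down, did not pass the filter, with stage means of at most 9.687.

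**Figure D5:**
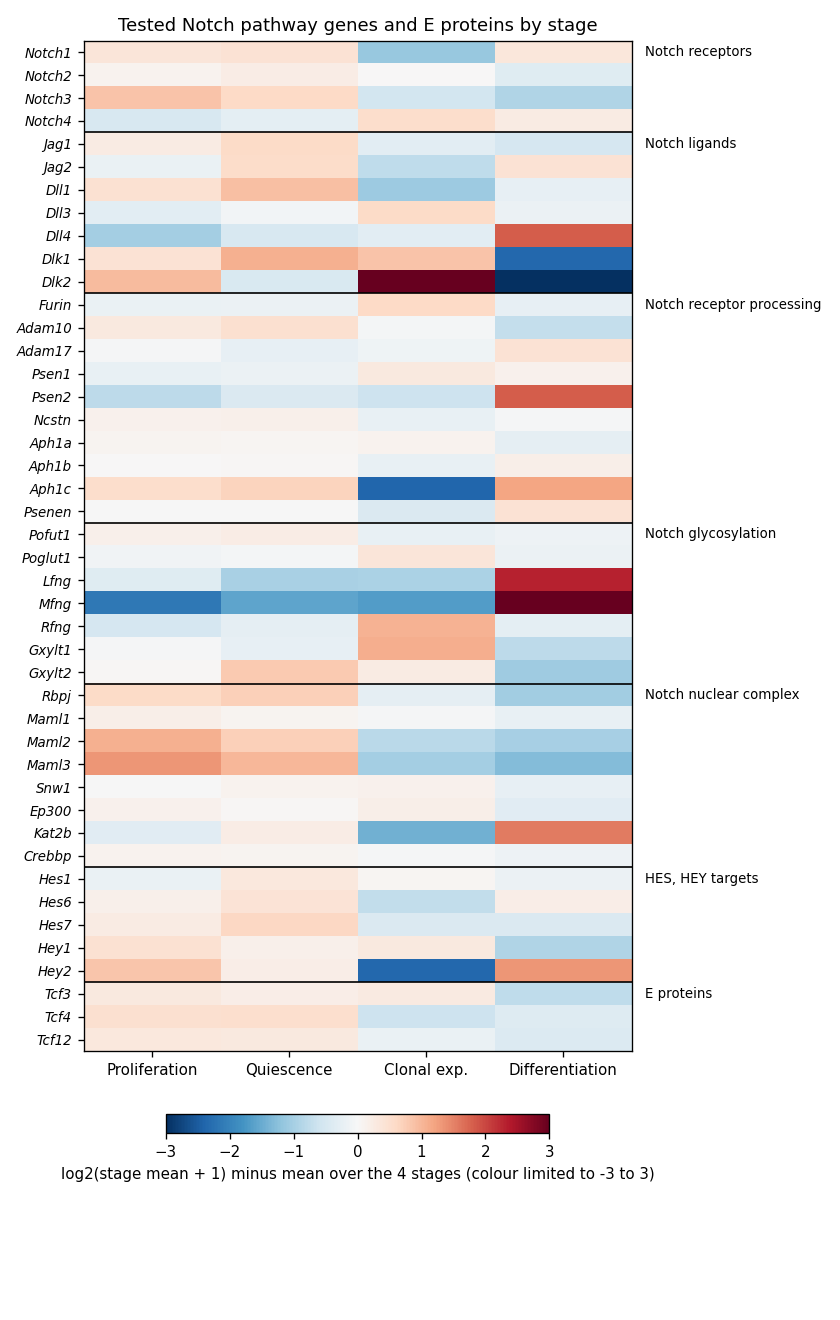
Log2 of the stage mean + 1 minus its mean over the 4 stages (colour, limited to -3 to 3) for the tested Notch receptors, ligands, processing enzymes, glycosylating enzymes, nuclear factors and HES and HEY genes, and for the E proteins, by stage. Notch1, Jag2, Dll1, Aph1c, Kat2b and Hey2 are lowest at clonal expansion, and Psen2, Lfng, Mfng and Kat2b are highest at differentiation.

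Of 10 genes whose products cut or process Notch receptors, none changed at quiescence (1 was higher and 1 lower at an unadjusted p under 0.05 in limma), 2 rose and 5 fell at clonal expansion, beside 34.4% and 34.4% of all genes, and 5 rose and 3 fell at differentiation against clonal expansion, beside 36.8% and 36.2%. Furin, the convertase that makes the mature receptor, had 28392 ± 144 pseudo-counts at clonal expansion, against 16618 ± 432 at quiescence (log2FC 0.77, adjusted p = 3.05e-05). Adam10, which makes the first cut after ligand binding, had 26814 ± 1044, against 39523 ± 657 (-0.56, adjusted p = 0.000359). In gamma-secretase, which makes the final cut, Psen2 rose at differentiation to 11726 ± 748, against 2159 ± 341 at clonal expansion (2.45, adjusted p = 4.96e-07). Aph1c had 57.09 ± 5.36 at clonal expansion, against 474.5 ± 21.6 at quiescence (-3.04, adjusted p = 7.89e-07), but it lies beside a close copy, Aph1b, and reads could be split between them. Of the Fringe enzymes, which change how receptors respond to Jagged and Delta ligands, Lfng rose at differentiation to 11548 ± 488, against 1220 ± 2.18 at clonal expansion (3.24, adjusted p = 1.38e-08). Mfng was at 184.8 ± 20.2 at differentiation and had means below 1 before it, and Rfng peaked at clonal expansion at 13360 ± 534, against 5366 ± 877 at quiescence (1.32, adjusted p = 8.37e-06). Of 7 glycosylating enzymes tested, 3 rose and 1 fell at clonal expansion, and 2 rose and 4 fell at differentiation against clonal expansion, beside the same shares. Mfng is 1 of those 2, and it passed the filter on low values only through the differentiation libraries, so its rise carries no weight in that count.

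In the nuclear complex of Notch, 4 of 8 genes fell at clonal expansion, beside 34.4% of all genes, and 5 were lower at differentiation than at quiescence, beside 32.9%. Rbpj, the DNA-binding partner, had 6590 ± 502 pseudo-counts at proliferation, 7258 ± 352 at quiescence, 3681 ± 63.1 at clonal expansion and 2148 ± 70.2 at differentiation. It fell at clonal expansion against quiescence (log2FC -0.98, adjusted p = 1.83e-05) and at differentiation against clonal expansion (-0.78, adjusted p = 6.63e-05). Of the Mastermind coactivators, Maml2 had 3038 ± 156 at clonal expansion, against 8838 ± 600 at quiescence (-1.54, adjusted p = 9.08e-07), and Maml3 had 617.9 ± 54.9, against 2506 ± 33.9 (-2.02, adjusted p = 1.24e-06). Neither passed the test between differentiation and clonal expansion. The acetyltransferase Kat2b was the exception, with 2065 ± 88 at clonal expansion, against 6479 ± 1128 at quiescence (-1.64, adjusted p = 2.12e-06), and 16596 ± 457 at differentiation (3.01 against clonal expansion, adjusted p = 1.98e-08). Of 8 genes of the complex tested, 1 rose and 1 fell at quiescence, beside 11.9% and 11.8% of all genes, and 4 fell at clonal expansion. At differentiation against clonal expansion 1 rose and 3 fell, beside 36.8% and 36.2%. At differentiation against quiescence 1 rose and 5 fell, beside 33.4% and 32.9%, with a median log2FC of -0.33, where that of all genes was 0.01.

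Among genes that traffic or ubiquitinate Notch proteins, 14 were tested. At quiescence 4 of them rose and none fell, beside 11.9% and 11.8% of all genes. At clonal expansion 2 rose and 8 fell, beside 34.4% and 34.4% of all genes. At differentiation against clonal expansion 7 rose and 4 fell, beside 36.8% and 36.2%. Dtx4, a Deltex ubiquitin ligase, had 8455 ± 567 pseudo-counts at differentiation, against 555.1 ± 29.9 at clonal expansion (log2FC 3.93, adjusted p = 5.81e-09) and 1939 ± 259 at quiescence. Neurl1b, a Neuralized ligase, had 5.073 ± 2.21 at clonal expansion, against 200.6 ± 24.6 at quiescence (-5.10, adjusted p = 1.65e-06). Of 6 TLE corepressors, partners of HES proteins, 2 rose and 4 fell at clonal expansion against quiescence, beside the same 34.4% and 34.4%. Tle2 had 3134 ± 100, against 26187 ± 1457 at quiescence (-3.06, adjusted p = 8.06e-08), and Tle1 had 5664 ± 99.9, against 1788 ± 22.9 (1.66, adjusted p = 6.48e-07). Of 10 RBPJ corepressors, 3 rose and 3 fell at clonal expansion, and 2 rose and 7 fell at differentiation against clonal expansion, beside the same shares. At that last step Bend6 had 81.46 ± 3.01, against 437.1 ± 11.2 (-2.41, adjusted p = 9.33e-07).

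Over all the lists of Id, Twist, Notch and BMP genes other than the 10, 99 of 116 genes in the table were tested. Of these, 13 rose and 11 fell at quiescence against proliferation, where 11.9% and 11.8% of all genes did. At clonal expansion against quiescence 25 rose and 38 fell, beside 34.4% and 34.4% of all genes, and 30 rose and 45 fell at differentiation against clonal expansion, beside 36.8% and 36.2%. At differentiation against quiescence 21 rose and 50 fell, beside 33.4% and 32.9%, and against proliferation 22 rose and 42 fell, beside 34.5% and 33.3%, with medians of -0.32 and -0.25 on the log2 scale, where those of all genes were 0.01 and 0.02. At clonal expansion against proliferation 30 rose and 35 fell, beside 32.7% and 32.1%. Mfng, which passed the filter on low values only through the differentiation libraries, is among the genes that rose at differentiation. Its rise carries no weight in those counts.

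Per length, Id1 was the highest of the 10 genes at proliferation, clonal expansion and differentiation, with stage means of 21164, 37217 and 7549 pseudo-counts per kb, and Twist1 was the highest at quiescence, with 12490 beside 7459 for Id1. At differentiation Id1 was followed by Jag1 at 3014, Twist1 at 2765 and Hes1 at 2433 per kb. The lowest there were Id2 at 104 and Id4 at 72.5 per kb.

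The genes whose log2 values followed each of the 10 most closely were looked up among 11631 genes with a mean of at least 200, by Pearson r over the 8 libraries, as a description. For Id1 they were Ybx1 (r = 0.9937), Ttll12 and Fam72a. Those nearest Id2 were Nr2f2 (0.9989), Ccnd1 and Loxl3, those nearest Id3 were Klhdc8a (0.9983), Upp1 and Lmnb1, and those nearest Id4 were Ncs1 (0.999), Efhd2 and Slpi. Twist1 was closest to Mapk7 (0.9921), Ecm2 and Tcea2, and Twist2 to Pcolce2 (0.9916), Trim32 and Kctd5. For Notch1 they were Cryzl1 (0.9958), Scaper and Nr1d2, which had 1084 pseudo-counts at clonal expansion and 4890 to 5245 at the other stages. Jag1 was closest to Mfhas1 (0.9959), Gulp1 and Frmd6, Notch2 to Zfp266 (0.9809), and Hes1 to Tmed10 (0.9284), the lowest of the first-ranked coefficients. Among the 10 themselves, Twist1 and Jag1 had r = 0.94, Twist2 had 0.96, 0.92 and 0.97 with Id2, Id3 and Id4, and Id1 and Notch1 had -0.80.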

How the data were processed

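RNA-seq was analysed from 8 libraries, 2 at each of 4 stages. Per the labels' protocols, total RNA from Trizol went into unstranded TruSeq libraries, read as single 100 nt reads. The submitters' processing notes name CASAVA 1.8.2, edgeR and mm9. The aligner and gene models are not given in the sources used here. The deposited values are a signal per gene, pseudo-counts that the authors scaled by relative log expression (RLE) with edgeR, per the name of the deposited table. Whole reads could not be recovered from them, so no count model was used and read depth is unknown.

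Python 3.11.15 (pandas 2.3.3, numpy 2.4.6, matplotlib 3.10.9) and R 4.3.3 with limma 3.58.1 were used. The 14647 genes whose mean over the libraries reached 10 were fitted on the log2(value + 1) scale by stage, using all 8 libraries and a variance trend. Tests were two-sided in 6 comparisons, adjusted by Benjamini-Hochberg over all genes tested, with a threshold of 0.05. The median SE was 0.142 with 9.78 degrees of freedom. The fit was also run on simulated data in which few genes changed, at clonal expansion only, with noise independent between libraries. Those settings differ from these data, so that run does not show how reliable the calls are. Adding 1 understates fold changes of low genes. Deviations of same-numbered libraries correlated at 0.354 between quiescence and clonal expansion, at 0.134 between quiescence and differentiation, and at 0.013 to 0.072 otherwise. The labels do not state pairs, so the numbers were used only in an alternative, as a replicate block.

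The 10 genes and all lists were chosen with earlier results of these data known. All 10 were named. Of other list genes, up to 3 per list, direction and comparison were to be named, by size of change. That rule was not followed throughout, so the genes named are not always the largest changes. Gdf6 (log2FC -4.86) and Gxylt1 (1.36) at clonal expansion against quiescence, for example, were left out above. Every Notch receptor, ligand and HES or HEY gene and every E protein was named. Transcript lengths (GENCODE vM21, GRCm38) matched 13925 of the tested genes (95.1%) by gene ID. Alternatives were other pseudocounts, filters and scalings, a replicate block, no variance trend, the libraries of the compared stages alone, and leaving out each library. Removal of the trend with transcript length was added after seeing the data.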

Additional observations from a re-analysis of the deposited data

How the results depend on the processing

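Of 60 differences (10 genes in 6 comparisons), 35 kept their sign and their side of the threshold under all 19 alternatives. Over the 1140 values, 50 calls were lost, 31 gained and 29 signs turned, each of these in a difference that was not called. The count of the 10 genes called at quiescence against proliferation was 3 with no variance trend, where it was 6 with it, and 3 to 6 with each library left out in turn. In that comparison 1300 genes of the table were called without proliferation 2 and 1757 with no filter on low values, against 3472. The other 5 counts of the 10 genes stayed within 1.5 times.

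With the experiment number as a replicate block, Notch2 at differentiation against proliferation was called (log2FC -0.46, adjusted p = 0.026), and no other call of the 10 genes changed. With the same total per library the median of all genes shifted to -0.24 at clonal expansion against quiescence, -0.23 at differentiation against quiescence, -0.27 at clonal expansion against proliferation and -0.25 at differentiation against proliferation. Calls were then 3768 higher and 6302 lower, 3795 and 6314, 3183 and 6400, and 3760 and 6518, and 1563 and 2116 at quiescence against proliferation, against near equal numbers with the authors' scaling.

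Signs turned for Twist2 at clonal expansion against quiescence (-0.11 with the same total, -0.12 with quantile normalization), Id1 at differentiation against quiescence (-0.21, -0.12, and -0.14 with the length trend removed, with or without the block) and Id3 at clonal expansion against proliferation (-0.20 and -0.18). They also turned for Hes1 at clonal expansion against proliferation (-0.03 with the same total) and at differentiation against proliferation (-0.24, and -0.11 with the length trend removed), and with that trend removed for Notch2 at clonal expansion against proliferation (0.06) and Notch1 at differentiation against proliferation (0.10). The cause was not tested.

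With each library left out in turn, values ran from -0.05 to 0.21 for Notch1 and -0.30 to 0.44 for Notch2 at quiescence against proliferation, and from -0.06 to 0.31 for Twist2 and -0.53 to 0.21 for Notch2 at clonal expansion against quiescence. They ran from -0.13 to 0.18 for Id1 and -0.21 to 0.05 for Notch1 at differentiation against quiescence, from -0.12 to 0.27 for Id3 and -0.20 to 0.01 for Notch2 at clonal expansion against proliferation, and from -0.07 to 0.07 for Notch1 and -0.07 to 0.13 for Hes1 at differentiation against proliferation. With 2 libraries per stage, differences near the threshold depend on single libraries.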
